A study of Rattus norvegicus with 16 samples.

Results

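The 10 genes described here are immediate early response genes, which cells switch on within minutes of a stimulus: *Fos*, *Jun*, *Junb*, *Jund*, *Atf3*, *Egr1*, *Egr3*, *Ier2*, *Ier3* and *Zfp36*. Their probes were taken by name, as every noncontrol probe whose gene name on the array was one of the 10. The 10 names themselves were chosen with earlier results of these data known. This gave 11 of the 41012 probes on the array, 1 for each gene and a second one for *Jund*. Liver RNA of male Lewis rats, an inbred strain, was hybridised with 1 dye (Cy3) to 16 whole-genome arrays, 1 for each sample. There were 3 samples each at 3, 9, 12 and 18 months of age and 4 samples at 24 months. No treatment is named; the animals were kept pathogen-free with free food and water on a 12-h light and dark cycle, and their livers were frozen in liquid nitrogen. The labels give neither the hour of collection nor the time from death to freezing, and do not say that each sample was a separate animal, so p-values measure the spread between these samples, which may be technical. Arrays carry the sample numbers of the labels, which run 2 to 4 at 12 months and 1, 3 and 4 at 18 months.

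Immediate early genes need no new protein synthesis to be transcribed: kinases switched on by growth factors, cytokines or stress phosphorylate factors that already sit on their promoters, such as SRF with its Elk partners at CArG boxes, and CREB at cAMP response elements. Their messages are short lived, in part because AU-rich elements in the 3′ end recruit decay factors, one of which, tristetraprolin, is itself the product of *Zfp36*. In liver they are known for a burst after partial hepatectomy, during the acute phase response, after feeding, and after handling or ischaemia of the tissue itself.

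The probes that carry the results are given first, since they set which part of a message was measured. Each is a 60-base oligonucleotide in the sense direction, and the *Fos* and second *Jund* probes lie in the reading frame of the leucine zipper, the coil through which Fos and Jun proteins pair. The *Junb* probe ends on the stop codon, in capitals, and the *Zfp36* probe lies where the message is AU-rich. Of that probe a stretch of 22 bases is shown, with 1 copy of ATTTA, the core of an AU-rich element, in capitals.
Fos probe: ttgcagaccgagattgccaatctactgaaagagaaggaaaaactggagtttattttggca
Jund second probe: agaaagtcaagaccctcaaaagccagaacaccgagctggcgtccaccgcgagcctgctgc
Junb probe: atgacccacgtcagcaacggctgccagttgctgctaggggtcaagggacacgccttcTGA
Zfp36 probe, part: acgactttATTTAttgtaataa
The *Zfp36* probe held ATTTA 3 times, the *Ier3* probe 2 times and the *Ier2* probe 1 time, and the other 8 probes not at all. Of all 41012 probes, 7.61% held it. On rn4 (RGSC v3.4), the build named in the files, the *Fos* probe lies at chr6:109561099-109561158 on the plus strand, the *Junb* probe at chr19:24832781-24832840 on the plus strand, and the *Zfp36* probe at chr1:83486788-83486847 on the minus strand. The *Jund* probes lie at chr16:19239704-19239763 and chr16:19240333-19240392, both on the minus strand.

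Promoters of RefSeq (build GRCr8) were matched to 5 of the 10 genes. Shown are the 250 bases before the start of *Junb* and *Zfp36*, which were low together at 9 months, of *Jund*, which was high at that age, and of *Ier2*, whose level was highest at 3 months. Capitals mark the cAMP response element TGACGTCA, the EGR site GCGGGGGCG and the CArG box, searched on both strands.
Junb, chr19:40080876-40081125, plus strand: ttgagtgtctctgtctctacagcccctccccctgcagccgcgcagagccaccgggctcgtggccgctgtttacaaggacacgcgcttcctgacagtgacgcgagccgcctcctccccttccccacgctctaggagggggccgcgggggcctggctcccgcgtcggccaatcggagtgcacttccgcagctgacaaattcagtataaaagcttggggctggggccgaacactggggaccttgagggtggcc
Zfp36, chr1:92799109-92799358, minus strand: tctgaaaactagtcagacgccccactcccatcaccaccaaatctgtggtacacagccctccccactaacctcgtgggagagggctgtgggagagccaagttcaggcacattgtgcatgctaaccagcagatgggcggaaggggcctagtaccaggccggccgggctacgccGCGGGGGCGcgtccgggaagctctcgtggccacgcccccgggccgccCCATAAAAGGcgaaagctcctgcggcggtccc
Jund, chr16:18769772-18770021, minus strand: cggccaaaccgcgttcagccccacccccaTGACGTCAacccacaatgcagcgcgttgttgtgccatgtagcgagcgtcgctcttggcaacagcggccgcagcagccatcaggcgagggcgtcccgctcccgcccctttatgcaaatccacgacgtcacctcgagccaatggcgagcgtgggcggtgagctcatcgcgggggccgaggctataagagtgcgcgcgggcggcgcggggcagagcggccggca
Ier2, chr19:40399123-40399372, plus strand: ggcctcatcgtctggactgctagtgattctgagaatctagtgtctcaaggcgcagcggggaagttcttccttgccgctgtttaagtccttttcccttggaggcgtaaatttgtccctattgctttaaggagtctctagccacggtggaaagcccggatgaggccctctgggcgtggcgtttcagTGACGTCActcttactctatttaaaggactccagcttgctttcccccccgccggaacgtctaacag
*Jund* held TGACGTCA from 221 to 214 bases before the start and *Ier2* from 66 to 59. *Zfp36* held GCGGGGGCG from 79 to 71 bases before the start and a CArG box from 32 to 23. The *Egr1* promoter, which is not printed, held 2 CArG boxes, from 105 to 96 and from 83 to 74 bases before the start. Of the 33469 promoters in the table, 1.5% held a CArG box, 1.59% TGACGTCA and 2.45% GCGGGGGCG in the same window. The AP-1 site TGANTCA, held by 6.34% of promoters, was in none of the 5, and *Junb* held none of these 4 motifs. A match is a description of letters and not of binding.

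Signal was taken to log2 relative to the 75th percentile of each array, so that 0 is the signal at that percentile and each step of 1 is a 2-fold step. On the 16 arrays 52.5% to 65.2% of probes lay well above background. All 8 hepatocyte markers measured lay above background on every array, with a summed linear signal of 2228 to 3819 times the 75th percentile. All members except *Egr3* also did so on every array. Arrays correlated with the others of their age at a mean r of 0.962 to 0.994, lowest for 12-month array 2 and 24-month arrays 3 and 4. The arrays lay on 7 slides. Slide 1 held all 3-month arrays and 9-month array 2, and slide 2 held the other 9-month arrays and 12-month array 2. Slide 3 held 12-month arrays 3 and 4, and the 18-month and 24-month arrays shared a slide with no other age. By the scan dates in the file headers, slides 1 and 2 were scanned on day 1. Day 2 held slides 3 and 4, the latter with the 18-month arrays, and day 3 the 24-month arrays. Days are numbered by age. A scan session here is a calendar year: days 1 and 3 fell in session 1 and day 2 in session 2. Only the 12-month arrays fell in both sessions, array 2 alone in session 1. With session as a block, 12 against 9 and 24 against 18 months therefore rest on 12-month array 2. A level of one gene is not set against that of another, since probes differ in how well they bind. In whole liver, fewer cells of a type and less RNA per cell cannot be told apart.

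At 9 months *Egr1*, *Junb*, *Zfp36* and *Ier3* were lower than at 3 months, by 5.65-fold, 5.64-fold, 2.85-fold and 1.66-fold, and *Jund* was 1.76-fold higher. At 12 months all 5 had moved back: the first 4 were 7.05-fold, 3.65-fold, 3.39-fold and 1.99-fold above their 9-month level and *Jund* was 1.94-fold below it. Both comparisons use the same 9-month arrays, and 12-month arrays 3 and 4 shared no slide or scan day with them. In each, 5 of the 10 genes passed limma's moderated test at an adjusted p under 0.05, where 5.13% of the 21489 genes tested passed for 9 against 3 months and 6.27% for 12 against 9 months. By direction, 4 fell and 1 rose from 3 to 9 months, with 3.2% of all genes falling and 1.94% rising. From 9 to 12 months 4 rose and 1 fell, with 3.17% of all genes rising and 3.1% falling. The median change of the 10 genes was -0.60 from 3 to 9 months and 0.53 from 9 to 12 months, on the log2 scale, beside 0.04 and -0.01 over all genes tested. The arrays of the 2 ages did not overlap for 7 of the 10 genes from 3 to 9 months, 6 lower and 1 higher, beside 18% and 23% of all genes. From 9 to 12 months they did not overlap for 4 higher and 2 lower genes, beside 13.1% and 12.7% of all genes. The plot of values by array shows the 9-month arrays as a separate low cluster for *Junb*, *Egr1* and *Zfp36*. The share of all genes with 9-month arrays wholly below or above all others was not counted.

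**Figure D1:**
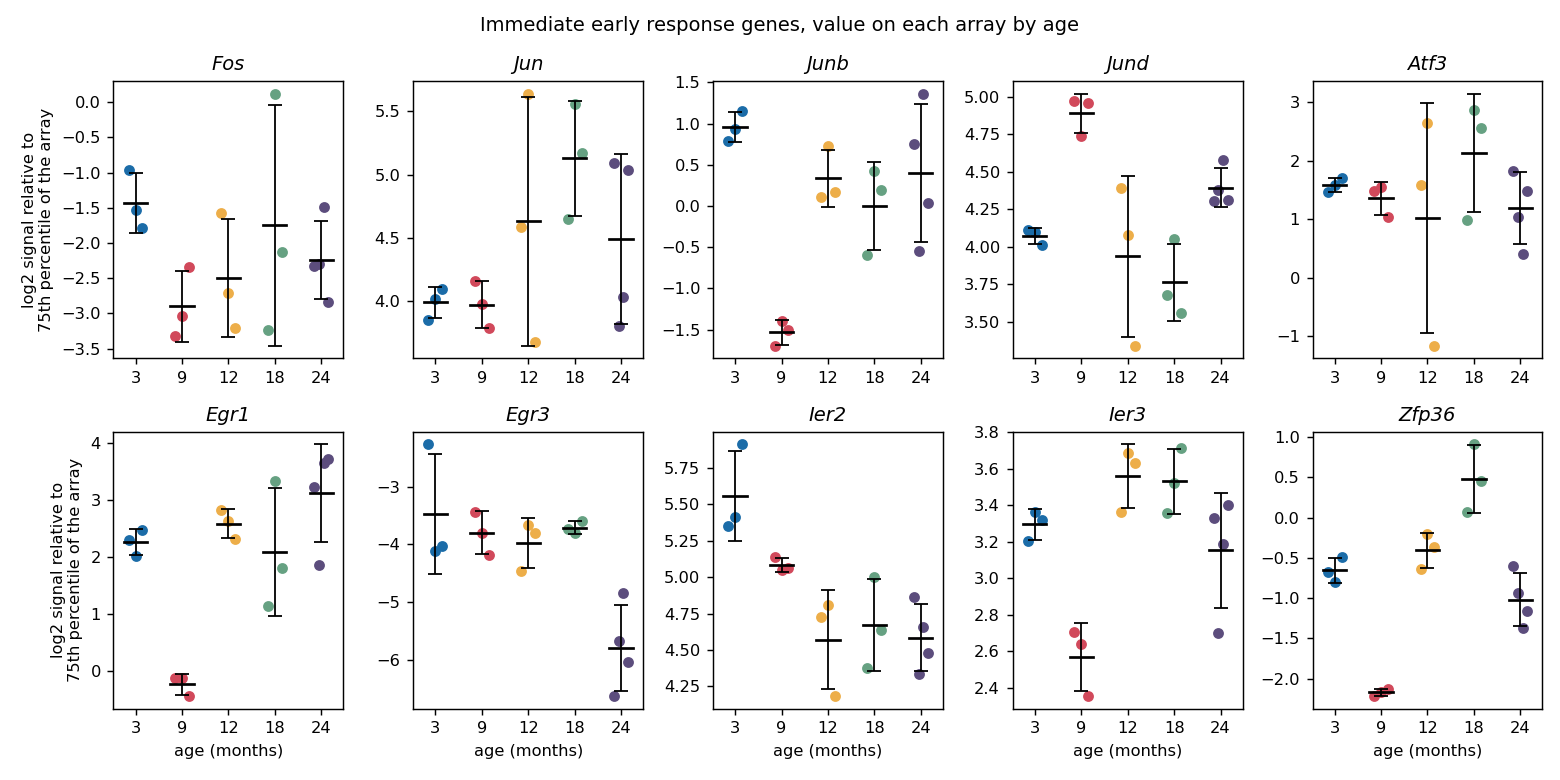
Log2 signal relative to the 75th percentile of the array (vertical axis, a separate scale for each gene) against age in months for the 10 genes; points are single arrays, the bar is the mean and the whiskers 1 SD, with n = 3 at each age except n = 4 at 24 months. The 3 arrays at 9 months lie below all other 13 arrays for *Junb*, *Egr1* and *Zfp36* and above them for *Jund*, while *Egr3* is lowest on the 4 arrays at 24 months. The share of all genes placed like this at 9 months was not counted.

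*Fos* encodes the partner that, joined to a Jun protein, forms the classical AP-1 dimer. Its log2 signal was -0.96, -1.54 and -1.79 on the 3-month arrays, -3.32, -3.04 and -2.34 at 9 months, and -1.58, -2.71 and -3.21 at 12 months. At 18 months it was -3.24, 0.12 and -2.12, and at 24 months -2.33, -2.30, -1.49 and -2.83. Every 9-month array lay below every 3-month array, but from 12 months on the ages overlapped, and 18-month array 3 was the highest of all 16. The 9-month mean was -2.90 ± 0.50 (SD, n = 3) against -1.43 ± 0.43 (SD, n = 3) at 3 months, a difference of -1.47 (SE 0.67) that did not pass, with an adjusted p of 0.264 in limma. It passed when arrays were weighted by their quality, with an adjusted p of 0.0164, and when only the arrays of these 2 ages were fitted, with 0.0223. Those 2 settings called 7337 and 4127 of all genes, against 1103 otherwise. No other comparison of *Fos* passed. Over all 5 ages its adjusted p was 0.325, and 0.0336 with arrays weighted by their quality. With those weights 16351 of the 21489 genes tested passed over all ages, against 8042 without them.

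*Jun*, which can pair with itself or with Fos, was measured by 10 spots on each array, whose SD on one array was 0.0506 to 0.152. Its log2 signal was 3.85, 4.02 and 4.10 at 3 months and 4.16, 3.98 and 3.78 at 9 months. It was 4.58, 5.64 and 3.67 at 12 months, 4.65, 5.56 and 5.18 at 18 months, and 5.09, 3.80, 4.03 and 5.04 at 24 months. The first 2 ages overlapped in a narrow range, at 3.99 ± 0.12 and 3.97 ± 0.19 (SD, n = 3 each), and the highest and the lowest of all 16 values, 5.64 and 3.67, were both on 12-month arrays. The difference from 3 to 9 months was -0.02 (SE 0.44) with a limma adjusted p of 0.991. None of the 5 comparisons passed. Over all ages the adjusted p was 0.164, and 0.0141 with arrays weighted by their quality, a setting in which 16351 of the 21489 genes passed.

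*Junb*, the Jun protein that can hold back c-Jun at its sites, had a log2 signal of 0.79, 0.94 and 1.16 at 3 months and -1.69, -1.40 and -1.51 at 9 months. It was 0.11, 0.73 and 0.17 at 12 months, -0.60, 0.42 and 0.19 at 18 months, and 0.75, -0.55, 1.36 and 0.04 at 24 months. The 9-month arrays were below all others, and the remaining ages overlapped except 12 and 18 months with 3 months, where every 3-month array was the higher. The mean fell from 0.96 ± 0.18 to -1.53 ± 0.15 (SD, n = 3 each), a change of -2.50 (SE 0.39, limma adjusted p = 0.00275), and rose by 1.87 (SE 0.39, adjusted p = 0.0157) to 0.34 ± 0.34 (SD, n = 3) at 12 months. The fall was called without any single array. The rise was not called without 9-month array 1 (adjusted p = 0.0618) or array 3 (0.0522), nor with scan session as a block (1.64, 0.0603).

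*Jund* encodes the Jun protein that is most often present in resting cells, and it moved the opposite way. The brighter probe read 4.11, 4.10 and 4.01 at 3 months, 4.97, 4.74 and 4.96 at 9 months, and 4.39, 4.08 and 3.34 at 12 months. At 18 months it read 3.68, 4.05 and 3.56, and at 24 months 4.30, 4.38, 4.58 and 4.31. All 3 arrays at 9 months stood above the other 13. The mean rose by 0.82 (SE 0.22, limma adjusted p = 0.0451) from 3 to 9 months, fell by 0.95 (SE 0.22, adjusted p = 0.0227) to 12 months, and rose by 0.63 (SE 0.20, adjusted p = 0.0349) from 18 to 24 months. The second probe read -1.07, -1.08 and -1.07 at 3 months and -0.14, 0.33 and -0.44 at 9 months, a rise of 0.99 (adjusted p over all probes 0.0465 in limma). It fell by 1.08 (0.0297) to 12 months, while its difference from 18 to 24 months, 0.43, did not pass (0.227). These calls depended on single arrays and on settings. The first was lost without any single array of the 2 ages (adjusted p up to 0.154), with slide as a random block (0.0788) and with normexp, another background correction (0.228). The second was lost without 9-month array 1 or 3 or 12-month array 4 (0.0516 to 0.0823, with a change of -0.66 without the last). It was also lost with scan session as a block, where the change was -0.50 (0.191), with scan day as a random block (0.083), with normexp (0.0973) and with only the 2 ages fitted (0.177). The third was lost without 18-month array 1 or 4 or 24-month array 2 or 3 (up to 0.134), and with scan session as a block its sign turned, to -0.05.

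*Atf3*, a stress-induced factor that binds the cAMP response element and pairs with Jun proteins, read 1.47, 1.58 and 1.71 at 3 months and 1.47, 1.55 and 1.04 at 9 months. At 12 months it read 1.59, 2.65 and -1.16, at 18 months 0.99, 2.87 and 2.56, and at 24 months 1.82, 1.04, 0.40 and 1.49. The 12-month arrays alone spanned more than the means of all ages, with an SD of 1.97 (n = 3) against 0.12 (n = 3) at 3 months. No comparison passed, and over all ages the adjusted p in limma was 0.650.

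*Egr1*, a zinc-finger activator of growth and wound genes, showed the widest span of age means among the 10 genes, 3.35 on the log2 scale. Its 10 spots, with an SD of 0.0485 to 0.104 on one array, gave a log2 signal of 2.30, 2.02 and 2.48 at 3 months and -0.12, -0.13 and -0.44 at 9 months. It was 2.83, 2.63 and 2.31 at 12 months, 1.14, 3.34 and 1.80 at 18 months, and 3.24, 1.87, 3.66 and 3.72 at 24 months. The lowest of the other 13 arrays, 18-month array 1, was still above all 9-month arrays. The mean fell from 2.27 ± 0.23 to -0.23 ± 0.18 (SD, n = 3 each), by 2.50 (SE 0.51, limma adjusted p = 0.0112), and rose by 2.82 (SE 0.51, adjusted p = 0.00761) to 2.59 ± 0.26 (SD, n = 3). The fall kept a size of at least 2.39 without any single array, but its adjusted p was 0.0539 without 3-month array 3 and 0.0533 without 9-month array 3. The 24-month mean, 3.12 ± 0.86 (SD, n = 4), was above the 18-month mean, 2.09 ± 1.13 (SD, n = 3), by 1.03 (SE 0.47), which did not pass (adjusted p = 0.128). Without 18-month array 3 that difference was 1.65 (0.0154), and without 24-month array 2 it was 1.44 (0.0226).

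*Egr3*, a relative of *Egr1* induced by the same signals, was the only one of the 10 genes that was not well above background on some arrays. It read -2.27, -4.11 and -4.04 at 3 months, -3.43, -3.80 and -4.18 at 9 months, and -4.47, -3.66 and -3.80 at 12 months. It read -3.74, -3.81 and -3.59 at 18 months and -6.63, -5.68, -4.84 and -6.04 at 24 months. None of the 24-month arrays, and not 12-month array 2, lay well above background, while the other 11 arrays did. All 24-month arrays lay below all 18-month and 3-month arrays. The 24-month group therefore has only a bound. Against the lowest signal well above background on its arrays, -4.19 on average, *Egr3* was at least 1.39-fold lower than at 18 months and at least 1.65-fold lower than at 3 months. The second bound uses the 3-month mean, -3.47, which rests on array 1 at -2.27. The 3-month arrays 2 and 3, at -4.11 and -4.04, lay close to the limit. The limma adjusted p-values, 0.00381 and 0.00385, belong to the differences in the values as read, -2.08 and -2.33. They do not test these bounds. With normexp on the mean signal the difference from 18 months was 0.09 and that from 3 months -0.06. That setting adds 50 intensity units to each signal, which draws the values of so dim a probe together. It therefore cannot decide whether *Egr3* was lower. With slide as a random block the adjusted p was 0.327 and 0.209.

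*Ier2*, a short nuclear protein of the first wave of induction, was highest at 3 months. It read 5.35, 5.41 and 5.91 at 3 months, 5.14, 5.05 and 5.06 at 9 months, and 4.73, 4.81 and 4.18 at 12 months. At 18 months it read 4.38, 5.0 and 4.64, and at 24 months 4.87, 4.34, 4.66 and 4.48. The 9-month arrays lay wholly below the 3-month arrays and the 12-month arrays wholly below the 9-month arrays, and the last 3 ages overlapped. The steps to 9 months, -0.47 (SE 0.21), and to 12 months, -0.51 (SE 0.21), did not pass, with limma adjusted p-values of 0.261 and 0.171. From 3 to 24 months it fell by 0.97 (SE 0.20, adjusted p = 0.00582), from 5.56 ± 0.31 (SD, n = 3) to 4.59 ± 0.23 (SD, n = 4), a 1.96-fold fall that was called without any single array. With slide as a random block the adjusted p was 0.302, and with scan day 0.358.

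*Ier3*, an inhibitor of cell death induced by NF-kB, read 3.20, 3.36 and 3.32 at 3 months and 2.70, 2.64 and 2.35 at 9 months. It read 3.36, 3.68 and 3.63 at 12 months, 3.36, 3.52 and 3.71 at 18 months, and 3.33, 2.70, 3.19 and 3.4 at 24 months. The 9-month arrays were below 12 of the other 13, with 24-month array 2 level with the highest of them. The fall to 9 months, by 0.73 (SE 0.18, limma adjusted p = 0.0322), was lost without any one of the 6 arrays of the 2 ages (up to 0.148), with slide as a random block (0.0512) and with normexp (0.293). The rise to 12 months, by 0.99 (SE 0.18, adjusted p = 0.00789), was called without any single array but not with normexp (0.154), with only the 2 ages fitted (0.0658) or within scan session 1 (0.0737).

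*Zfp36* had the smallest adjusted p of the 10 genes over all ages, 3.56e-05 in limma. It read -0.67, -0.80 and -0.50 at 3 months, -2.22, -2.16 and -2.13 at 9 months, and -0.64, -0.21 and -0.37 at 12 months. It was highest at 18 months, at 0.07, 0.91 and 0.45, and read -0.60, -0.94, -1.37 and -1.16 at 24 months. In rising order the means stood at 9, 24, 3, 12 and 18 months, and of these neighbours 24 and 3 months overlapped, as did 3 and 12 months. The mean fell by 1.51 (SE 0.22, adjusted p = 0.00166) to 9 months, rose by 1.76 (SE 0.22, adjusted p = 0.0012) to 12 months, and fell by 1.49 (SE 0.20, adjusted p = 0.000143), or 2.82-fold, from 18 to 24 months. All 3 calls held without any single array. The last had an adjusted p of 0.0642 with scan session as a block, where the fall was 1.14, and 0.0544 with scan day as a random block. The rise from 12 to 18 months, 0.88 (SE 0.22), did not pass at an adjusted p of 0.0674, but did without 12-month array 3 (0.98, 0.0486) or 24-month array 3 (0.0474).

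Slides 1 and 2 each held arrays of neighbouring ages, which can be compared there without a change of slide. On slide 1, 9-month array 2 differed from the mean of the 3-month arrays by -2.40 for *Egr1*, -2.36 for *Junb*, -1.50 for *Zfp36*, -0.65 for *Ier3* and 0.66 for *Jund*. On slide 2, 12-month array 2 differed from the mean of 9-month arrays 1 and 3 by 3.11, 1.71, 1.53, 0.83 and -0.57 for the same genes. For these 5 genes the arrays of the 2 ages did not overlap, which fixes the sign within a slide, so only the sizes can be read here. *Atf3*, whose arrays did overlap, differed by 0.33 on slide 2 and by -0.33 over all arrays. The samples are too few for a test within a slide.

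**Figure D2:**
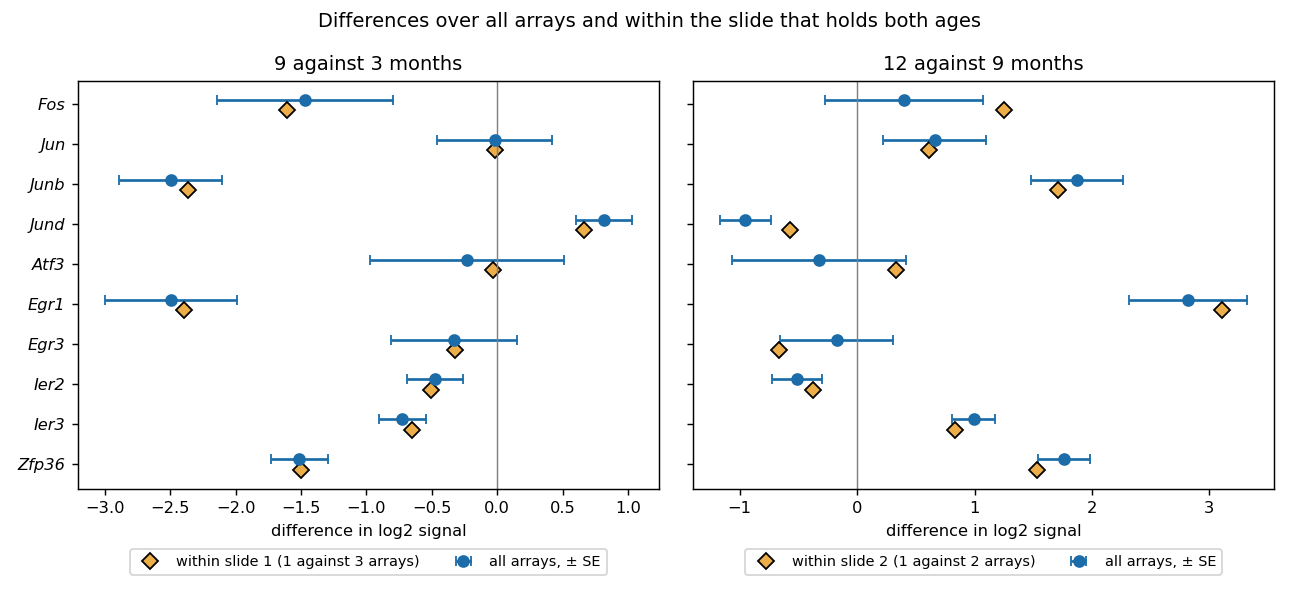
Difference in log2 signal (horizontal axis) for each of the 10 genes, over all arrays with its SE (circles) and within the 1 slide that holds both ages (diamonds, 1 array against 3 on slide 1 and 1 against 2 on slide 2). The slide values of *Egr1* are -2.40 and 3.11 and those of *Junb* -2.36 and 1.71, while *Atf3* lies at 0.33 on slide 2 against -0.33 over all arrays.

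From 12 to 18 months none of the 10 genes passed in limma, beside 1.38% of all genes tested, 1.07% upward. *Zfp36* alone had an unadjusted p under 0.05 and arrays that did not overlap, where 11.6% of all genes were wholly higher. From 18 to 24 months 3 genes passed, *Jund* upward and *Egr3* and *Zfp36* downward, beside 25.8% of all genes, 10.8% upward and 15% downward, so that the share of members was close to that of all genes. The arrays did not overlap for the same 3 genes, beside 17.3% of all genes wholly higher and 18.1% wholly lower. The median change of the 10 genes was -0.43, with *Egr3* at its bound or not, beside 0.05 over all genes. These ages shared no slide, scan day or scan session, so age and scan cannot be told apart. From 3 to 24 months 2 genes passed, *Ier2* and *Egr3*, both downward, beside 13.3% of all genes, 4.23% upward and 9.08% downward. The share of members was again near that of all genes. *Jund* was wholly higher without passing (0.32, adjusted p = 0.344), as were 12.5% of all genes, and 16.4% were wholly lower. The median change of the 10 genes was -0.38 beside -0.04. Over all 5 ages 7 of the 10 genes passed, beside 37.4% of all genes, and *Fos*, *Jun* and *Atf3* did not.

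**Figure D3:**
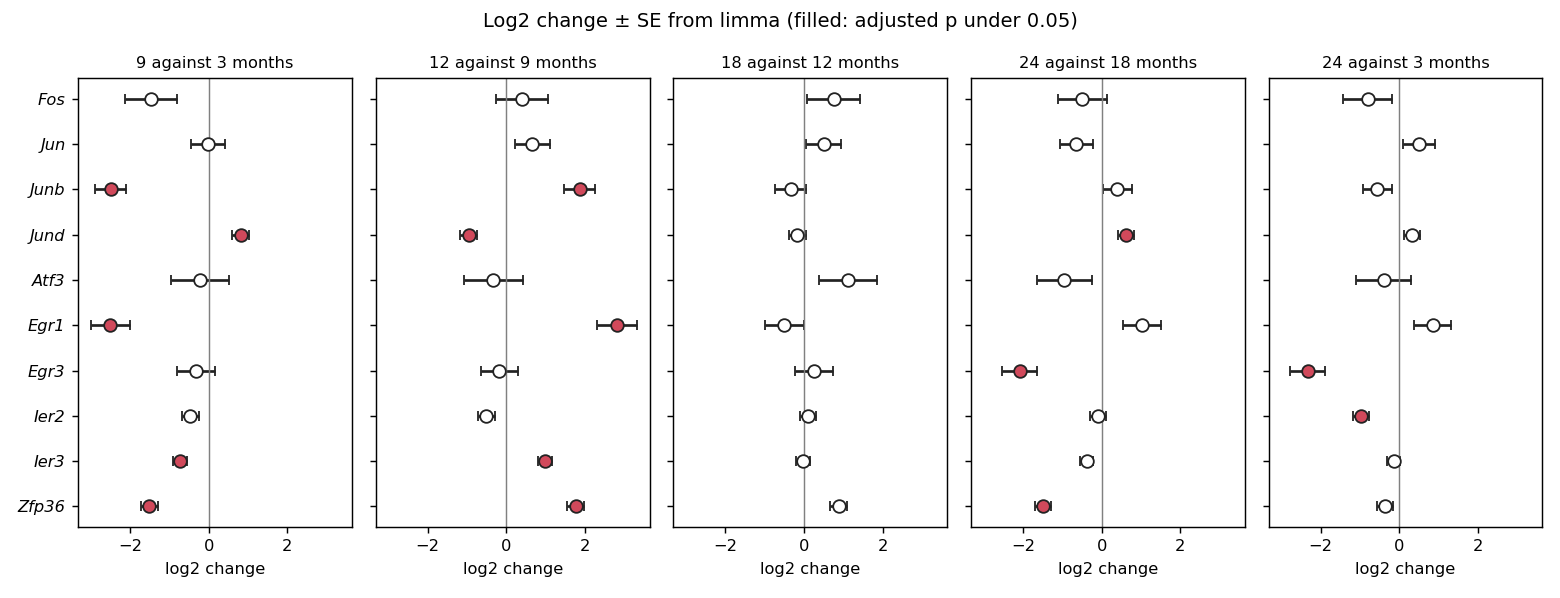
Log2 change with its SE (horizontal axis) for the 10 genes in each of the 5 comparisons of ages; filled points have a limma adjusted p under 0.05 over all 21489 genes. Filled points gather in the first 2 comparisons, 5 in each, with *Jund* opposite to the other 4 genes, and none is filled for 18 against 12 months.

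The spread between arrays of one age was wider for these genes than for the array at large at every age. From the youngest to the oldest age the median SD of the 10 genes was 0.169, 0.184, 0.387, 0.438 and 0.584 on the log2 scale. Over all genes tested it was 0.102, 0.175, 0.329, 0.151 and 0.302. At 3 months array 3 was the highest of its age for 6 of the 10 genes and array 1 the lowest for 5, and at 9 months array 1 was highest for 6 and array 3 lowest for 5. At 18 months array 3 was highest for 8 and array 1 lowest for 8. At 12 months array 3 was highest for 7 and array 4 lowest for 6, and at 24 months array 2 was lowest for 5. These arrays are placed here by their values as a description, and nothing in the labels separates them.

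Genes whose signal ran most like that of a member over the 16 arrays are named as a description, out of 9488 named genes that lay above background on all arrays. The arrays share slides, ages and scan days, which these values also follow. For *Junb* they were *Lmbr1l* (r = 0.91), *Nfkbiz* (0.91), an inhibitor of the NF-kB family, and the chemokine *Cxcl1* (0.88). For *Egr1* they were *Pms2* (0.89), *Map3k13* (0.89) and *Igfbp1* (0.89), which encodes a liver protein that binds insulin-like growth factors. For *Zfp36* they were *Plpp6* (0.92), *Rbmx2* (0.90) and *Fam107b* (0.90), for *Ier3* *Ydjc* (0.90), *Setbp1* (0.87) and the clock repressor *Nr1d1* (0.87), and for *Jund* *Nsdhl* (0.93), *Acvr1* (0.92) and *Rabep1* (0.89). *Fos* ran most like *Btg2* (0.79), itself an immediate early gene, *Rasgrp2* (0.76) and *Ceacam20* (0.70). The nearest to *Jun* were *Hoxb7* (0.89), *Gramd2b* (0.88) and *Psd3* (0.83), to *Atf3* *Tbcel* (0.82), *Nr3c2* (0.79) and *Lmbrd1* (0.77), and to *Ier2* *Srgap2* (0.87), *Lrpap1* (0.83) and *Il3ra* (0.83). *Egr3* was left out, since it was not above background on all arrays.

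Of 31 other immediate early genes measured, 4 fell and 1 rose from 3 to 9 months in limma, beside 3.2% and 1.94% of all genes, with a median change of -0.23. Adjusted p-values from limma stand in parentheses after each log2 change. *Gadd45b*, a stress-induced regulator of the cell cycle and of kinase signals, fell from 2.36 ± 0.14 to -0.03 ± 0.02 (SD, n = 3 each; -2.39, adjusted p = 0.0019) and rose by 2.0 (0.00715) to 12 months. *Klf6*, a zinc-finger factor, fell by 0.90 (0.0156) and rose by 0.96 (0.0127). *Plk2*, a kinase of the polo family, went the other way, by 1.34 (0.00413) up and 0.98 (0.0233) down. *Klf4* fell by 1.22 (0.0318) to 9 months, and *Btg1*, added after its value was seen to complete the 4, by 0.80 (0.0371). The *Gadd45b* calls held without any single array, as did the rise of *Plk2*, while the falls of *Klf6* and *Klf4* were lost without single arrays (adjusted p up to 0.0723 and 0.114), as were the rise of *Klf6* (up to 0.0515) and the fall of *Plk2* (up to 0.0881). From 9 to 12 months 3 of the 31 rose and 2 fell, beside 3.17% and 3.1% of all genes, with a median of 0.00. The third that rose was *Ccn2*, a secreted matrix protein (1.39, 0.0249, and up to 0.095 without single arrays). From 12 to 18 months none of the 31 passed, beside 1.38% of all genes. From 18 to 24 months 2 rose and 3 fell, beside 10.8% and 15% of all genes. *Pim1*, a kinase, was among those that rose (0.86, 0.00767), and *Fosb*, a Fos relative (-0.66, 0.00782), *Ccn1*, a secreted matrix protein (-1.29, 0.0116), and *Klf10* (-0.90, 0.0334) were those that fell. None of these 4 was called with slide or scan day as a random block.

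From 3 to 24 months 6 of the 31 fell and none rose, beside 9.08% and 4.23% of all genes, with a median of -0.24. *Fosb* fell from 1.88 ± 0.05 (SD, n = 3) to 0.75 ± 0.19 (SD, n = 4), by 1.13 (limma adjusted p = 0.000497), and this was called without any single array, but not with slide (0.0958) or scan day (0.126) as a random block. *Klf10* fell by 1.18 (0.0151), *Fosl2*, another Fos relative, by 0.91 (0.0214), and *Pim1* by 0.77 (0.0253). The last 3 calls were lost without single arrays, with adjusted p-values up to 0.0575, 0.0906 and 0.104. With normexp the sign of *Pim1* turned, to 0.11. *Klf4* and *Csrnp1*, added after their values were seen, were the other 2. Of 17 AP-1 partners measured, *Fosb* and *Fosl2*, which stand in both lists, were the 2 that fell and none rose, a share near the 13.3% of all genes called. From 3 to 9 months 2 AP-1 partners rose and 1 fell, beside 1.94% and 3.2% of all genes: *Atf4*, the amino acid response factor, rose by 0.84 (0.00666), *Nfe2l2*, the antioxidant response factor, by 0.97 (0.02), and *Batf*, of immune cells, fell by 1.94 (0.00214). The call of *Nfe2l2* was lost without any one of the 6 arrays (up to 0.0798).

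Among 18 feedback regulators measured, which switch the kinase and NF-kB signals off again, 3 fell from 3 to 9 months and none rose, beside 3.2% and 1.94% of all genes. *Nfkbia*, the inhibitor of NF-kB that NF-kB induces, fell from 3.65 ± 0.04 to 2.30 ± 0.07 (SD, n = 3 each; -1.35, limma adjusted p = 0.0112), and *Spry4*, which damps receptor kinases, by 1.21 (0.033). *Dusp2*, a kinase phosphatase, was not well above background on the 9-month arrays and was at least 2.16-fold lower there. Its adjusted p, 0.0379 in limma, belongs to the difference in the values as read, -1.97, and does not test this bound. From 9 to 12 months, with 6.27% of all genes called, 2 rose, *Nfkbia* (1.03, 0.0413) and *Zfp36l2*, a relative of *Zfp36* (0.69, 0.0382), and *Socs2*, which growth hormone induces, fell by 3.93 (0.0165). *Dusp8* was the only one of the 18 to pass from 12 to 18 months (1.66, 0.0429), beside 1.38% of all genes. From 3 to 24 months, with 13.3% of all genes called, 3 fell and 1 rose: the kinase phosphatases *Dusp1*, by 1.52 (0.0164), *Dusp6*, by 1.22 (0.0343), and *Dusp4* (0.0497), and upward the EGR corepressor *Nab1*, by 0.60 (0.00847). *Dusp4* was not above background at 24 months and on 1 array alone at 3 months, so no fold is given. The calls of *Nfkbia* to 9 months and of *Nab1* held without any single array, although the mean over the probes of *Nab1* differed by 0.21 (0.355). The others named here were each lost without at least 3 arrays in turn, with adjusted p-values up to 0.0589 for *Dusp1* and 0.173 for *Dusp4*.

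Among 24 upstream kinases and factors measured, 1 rose and none fell from 3 to 9 months, the stress kinase *Mapk14* (0.53, limma adjusted p = 0.0139), with a median of 0.10 over the 24, beside 5.13% of all genes called. From 9 to 12 months, with 6.27% called, 3 fell, *Mapk14*, *Mapk9* and *Egfr*, and 1 rose, *Map2k6* (1.59, 0.0274). Without single arrays the rise of *Mapk14* had an adjusted p of up to 0.0759, the fall of *Mapk9* of up to 0.0535 and the rise of *Map2k6* of up to 0.0941. The rise of *Mapk14* was also lost with normexp and with the mean over its probes (up to 0.704). From 18 to 24 months 7 of the 24 passed, a share near the 25.8% of all genes. Of these 6 rose, *Mkl1*, a partner of SRF (0.53, 0.0115), among them, and 1, *Creb1*, which binds the cAMP response element, fell by 1.52 (6.27e-05), from -0.34 ± 0.05 (SD, n = 3) to -1.86 ± 0.40 (SD, n = 4). The mean over the probes of *Creb1* differed by -0.30 (0.151). *Mkl1* was not called with normexp, with slide, scan session or scan day as a block, or with only the 2 ages fitted (up to 0.478). Of 14 inflammatory targets measured, 4 fell and none rose from 3 to 9 months, with a median of -0.94, beside 3.2% and 1.94% of all genes. The chemokine *Cxcl1* fell from 5.0 ± 0.06 to -0.54 ± 0.33 (SD, n = 3 each; -5.54, limma adjusted p = 0.00516), and this was called without any single array and in all 15 other settings. *Ccl3*, another chemokine, fell by 2.22 (0.032) and *Timp1*, an inhibitor of matrix proteases, by 0.99 (0.0115), with adjusted p-values up to 0.112 and 0.0602 without single arrays. From 3 to 24 months, with 13.3% of all genes called, 2 rose, *Il1b* (1.66, 0.000736) and *Vcam1* (1.16, 0.0106), and 3 fell. With scan day as a random block neither rise was called (0.0787 and 0.314). The plot of the lists sets these beside the 10 genes.

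**Figure D4:**
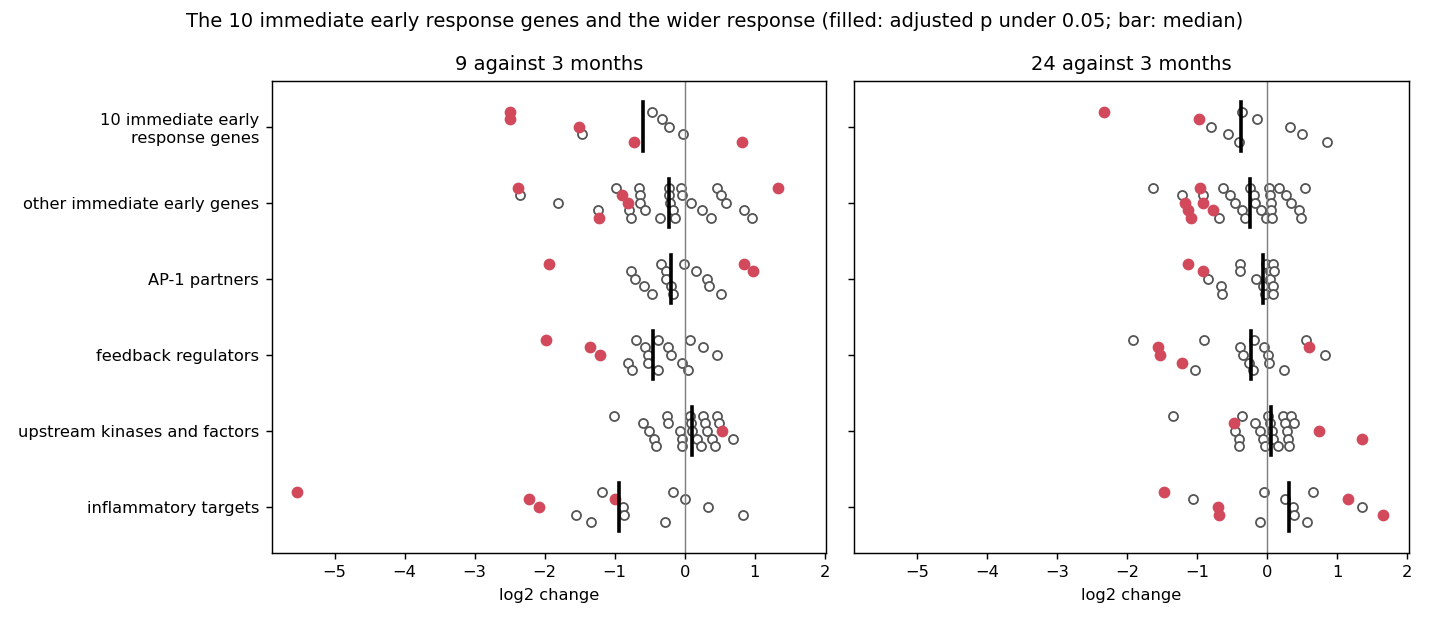
Log2 change (horizontal axis) of the 10 genes and of 5 lists of related genes, 1 point a gene, for 9 against 3 months (left) and 24 against 3 months (right); filled points have a limma adjusted p under 0.05 and the black bar is the median. At 9 months the medians of the 10 genes (-0.60) and of the inflammatory targets (-0.94) lie below 0 while that of the upstream kinases and factors (0.10) does not.

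Summed markers of neutrophils, of T and NK cells, of B and plasma cells, and of stellate cells and fibroblasts were also lower at 9 than at 3 months. The part of these cells in the results was not tested. Summed over the 6 neutrophil markers measured of 10, 3 of them above background on all arrays, the linear signal was 15.8 to 18.5 times the 75th percentile at 3 months and 1.19 to 1.59 at 9 months. It was 1.65 to 3.65 at 12 months, 1.62 to 3.99 at 18 months and 1.69 to 51.3 at 24 months. From 3 to 9 months 3 of the 6 fell and none rose, beside 3.2% and 1.94% of all genes. The 14 T and NK cell markers, 9 of them above background on all arrays, summed to 20.1 to 23.8 at 3 months, 6.07 to 6.75 at 9 months, 6.16 to 11.5 at 12 months, 5.64 to 6.51 at 18 months and 14.5 to 34.8 at 24 months, and 8 of the 14 fell to 9 months. Neither the 3 B and plasma cell markers measured nor the 2 erythroid ones held a call between 3 and 9 months. The B and plasma cell sum was 0.192 to 0.239 at 3 months and 0.0949 to 0.101 at 9 months, with no marker above background on all arrays. The erythroid sum was 9.19 to 10.5 at 3 months and 8.26 to 14.8 at 9 months. The 7 stellate cell and fibroblast markers measured summed to 39.3 to 45.5 at 3 months and 25.6 to 29.8 at 9 months, and 1 of them fell with a call. The hepatocyte sum was higher, at 2980 to 3485 and then 3562 to 3819. The 8 Kupffer cell markers measured of 9 summed to 136 to 144 at 3 months, 129 to 138 at 9 months and 106.9 to 147 at 12 months. At 18 months they summed to 96.9 to 121 and at 24 months to 150 to 197. From 3 to 9 months *Cd163* (1.24) and *Vsig4* (1.65) rose and *Timd4* (-1.20) fell with a call. The other Kupffer cell markers were not called. The 6 endothelial markers summed to 64.5 to 74.8 at 3 months and 61.7 to 65.0 at 9 months, and *Cdh5* (-0.61) and *Lyve1* (-1.10) fell with a call. The 4 cholangiocyte markers summed to 1.71 to 2.11 and then 2.10 to 3.26, and *Epcam* (0.67) rose with a call.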

How the data were processed

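Per the file headers, spots were quantified with Agilent Feature Extraction 10.7.3.1, and the signal, mean signal and background columns hold intensity values with no scaling between arrays. The flags for background, saturation and outliers are other columns, per the file headers. Deposited beside them is a table of log2 values that the authors scaled between arrays by a method not given in the sources used here; it served as an alternative (r with the scanner values 0.997 to 1.00). Per the labels, RNA was labelled with a microRNA kit, while the probes are those of mRNAs, which was not resolved.

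Processed signals were log2-transformed and centred on the 75th percentile of their own array, 171 to 412 intensity units. Outlier spots were dropped, which left no value of a member missing, and spots of a probe averaged. Kept were probes that stood well above background throughout at least 1 age (25698 of 41012 probes; 21489 genes, each by its probe of highest mean). Through accessions in a RefSeq table, 18028 probes were named, and the others kept the name on the array. All 16 arrays entered 1 limma fit (version 3.58.1, R 4.3.3) with age as the factor, and p-values were adjusted by Benjamini-Hochberg over all genes; a call is an adjusted p under 0.05. The number of arrays limits the precision. On simulated data of this size, for 9 against 3 months, the fit called 51 of the 100 genes made to differ 2-fold, and 90 of those made to differ 4-fold, with 14 false among 155 calls.

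The members and lists were chosen with earlier results of these data known. Named list genes are drawn from the up to 4 with the smallest adjusted p for each list and comparison, and the 3 genes nearest each member by Pearson r. A further list gene is not reported here. Alternatives covered background correction, scaling, filter, probe choice, array weights, blocks for slide, scan and sample number, and leaving out each array. Normexp was run with an offset of 50 intensity units. Sample numbers shared between ages were taken as names, since of 25 pairs of the same number only 2 had deviations that correlated above 0.1 (median -0.09). These values do not exclude a pairing.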

Additional observations from a re-analysis of the deposited data

How the results depend on the processing

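Over the 60 results on single genes of the 10 and their alternatives, 1824 comparisons in all, 1738 kept their side of the threshold, among them 32 of differences that were not called and changed sign, 75 lost a call, 9 gained one and 2 reversed. The causes were not tested. The number of the 10 genes called was 5 for 9 against 3 months, 5 for 12 against 9, 3 for 24 against 18, 2 for 24 against 3 and 7 over all ages. Of all genes tested, 1103, 1348, 5550, 2862 and 8042 were called in the same order. With normexp the 10 genes held 3, 3, 1, 1 and 3 calls, beside 340, 166, 975, 487 and 1619 over all genes. With slide as a random block (consensus correlation 0.687) they held 3, 5, 1, 0 and 4, beside 2054, 4829, 976, 310 and 4834 over all genes. With scan day as a random block they held 5, 4, 0, 0 and 4, beside 1480, 1574, 766, 108 and 2524. With scan session as a block 12 against 9 gave 3 and 24 against 18 gave 0, beside 4367 and 2806 over all genes. Both rest on 12-month array 2. Without a filter on dim probes 9 against 3 gave 3, beside 797 over all genes then tested. With probes above background on all arrays alone 24 against 3 gave 1, beside 1901 over all genes then tested. With only the ages compared 12 against 9 gave 3, beside 221 over all genes. Within scan session 1, chosen after seeing the data, array 2 alone stood for 12 months, so no count is given. Leaving out each array gave 2 to 5, 3 to 5, 2 to 4, 2 to 2 and 7 to 7, and 0 to 1 for 18 against 12. Over all genes it gave 483 to 1628, 484 to 2154, 3896 to 6896, 1574 to 3817 and 6273 to 9756, and 82 to 722 for 18 against 12. Without 12-month array 2 and 24-month arrays 3 and 4, also chosen after seeing the data, the counts were 5, 5, 4, 2 and 7. Over all genes they were 3258, 4004, 7647, 5119 and 12317. With sample number as a block, though the numbers are not known to pair the samples, the 10 genes held 4, 4, 3, 2 and 7 calls. Over all genes there were 796, 365, 4363, 2124 and 5412. There *Ier3* in 9 against 3 (limma adjusted p = 0.0515) and *Jund* in 12 against 9 (0.0648) lost their calls.

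Reversed with normexp were *Egr3* in 24 against 18 months (0.092) and, in 24 against 3, *Pim1* (0.11), *Dusp4* (0.35) and *Lif* (0.12). The offset of normexp draws the values of dim probes such as these together, so a turned sign there cannot be read as a change. With scan session as a block *Jund* (-0.050) and *Rps6ka2* (-0.44) reversed in 24 against 18, values that rest on 12-month array 2. Normexp moved the median of all genes from 0.05 to 0.13 in 24 against 18 and from -0.04 to 0.12 in 24 against 3. It moved the share of calls that were higher from 37.7% to 23.5% in 9 against 3 and from 50.6% to 38.6% in 12 against 9. In 18 against 12 that share went from 77.1% to 100%. Over all genes the calls in 9 against 3 months, 1103 here, ran from 340 with normexp to 7337 with array weights, and in 12 against 9, 1348 here, from 166 with normexp to 4829 with slide as a random block. *Egr3* at 24 months is limited by signal over background.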
